A study of Arabidopsis thaliana with 36 samples.

Results

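Roots were set against shoots in the Arabidopsis thaliana ecotype Tsu-1 (Tsu) after 48 h without iron, on 6 of the 36 arrays of the series. The members were chosen by sample title alone: 3 arrays of Tsu roots and 3 arrays of Tsu shoots, all from plants 24 d old that grew on complete medium and were then moved to medium lacking iron. All plants of the series grew on hydroponic solution with 16 h of light a day at 150 µmol, and the labels name no mutation or transgene. The other arrays used here as a reference are Tsu roots and Tsu shoots held 24 h on complete medium, in which Fe(III)-EDDHA supplies 50 µM iron, and roots and shoots of the ecotype Kas-1 (Kas) after 48 h without iron, with 3 arrays in each group. For the low-oxygen list alone, 3 arrays of Tsu roots after 24 h without iron are given too. For an index that separates the ecotypes, 3 arrays of Kas roots held 24 h on complete medium are given as well. Tsu-1 and Kas-1 are natural inbred lines. The RNA, labelled with biotin, was read on Affymetrix arrays of 1 colour, on which each gene is measured by a set of short probes.

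Whether the replicates of a group are separate plantings is not stated in the labels. The p-values therefore reflect only how far these samples spread, part of which may be technical. Titles give the tissue as roots or shoots, although the extraction protocol mentions rosettes throughout, so each array was checked with marker genes. The mean log2 level of 7 genes of the photosystems and their light-harvesting antennae was 3.848 to 3.98 on the 3 roots arrays and 11.152 to 11.227 on the 3 shoots arrays. The mean of EXPA7 and EXPA18, expansins of the root hair cell wall, was 5.237 to 6.286 in roots and 3.049 to 3.378 in shoots. Both lists went with the titles on all 6 arrays. Markers of flower organs averaged 3.697 to 3.746 in shoots, where AGL24 made the difference and SPL and UFO lay between 2.369 and 3.009.

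Plants take up iron mainly through the root epidermis. When iron is short, dicot roots acidify and reduce their surroundings, import ferrous iron and release coumarins that mobilise ferric iron, under the control of basic helix-loop-helix (bHLH) transcription factors. Leaves hold most of the plant's iron in the electron transport chain of the chloroplast, and small IRON MAN peptides carry part of the iron status signal through the plant.

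The 6 arrays had medians between 4.997 and 5.108 and held values from 1.43 to 13.313. Correlations over all probe sets were 0.9854 to 0.9925 among roots arrays, 0.9887 to 0.9921 among shoots arrays and 0.7384 to 0.7571 between tissues. The number of arrays limits the precision. Low values are dim readings, which do not show that a transcript was absent, because detection calls were not part of the values used. In these bulk samples, fewer cells of a type and less RNA per cell cannot be told apart. A control for large-subunit ribosomal RNA read 11.549, 11.119 and 9.247 on the roots arrays and 5.843, 6.673 and 9.071 on the shoots arrays, so the third replicate of each tissue stood apart from its group in that control.

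Differences are roots minus shoots on the log2 scale, where a value of 1 is a 2-fold difference. A probe set was called when its limma p, adjusted by the Benjamini-Hochberg method over all 22746 probe sets, was below 0.05. By that rule 11764 probe sets (51.7%) were called, of which 6690 (29.4% of all) were higher in roots and 5074 (22.3%) were higher in shoots. At least 4-fold differences among the calls numbered 1588 (6.98%) toward roots and 1784 (7.84%) toward shoots. The median difference over all probe sets was 0.005, and 71.45% of them differed by less than 1. A call between these tissues was therefore common, and counts in the gene lists below are to be read against these shares. Lists and members were chosen with earlier results of these data known, so the counts describe them and test nothing. The 3 values of one tissue lay wholly above those of the other in 13774 probe sets (60.6%), which is the background for each gene said not to overlap.

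**Figure D1:**
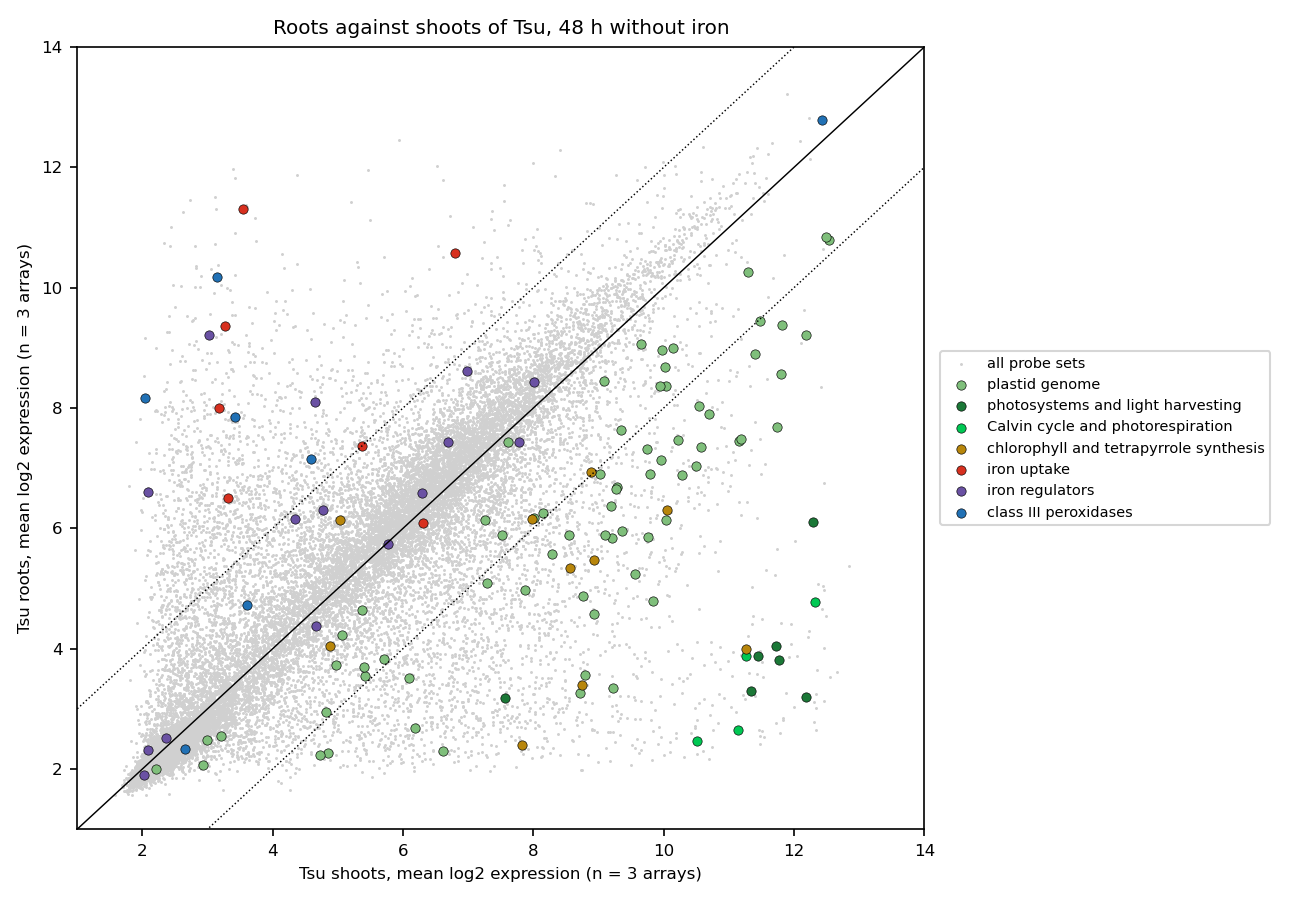
Each grey point is 1 probe set, with its mean log2 expression in Tsu shoots on the horizontal axis and in Tsu roots on the vertical axis (3 arrays each, 48 h without iron); the solid line marks equality and the dotted lines a 4-fold difference. Photosystem, Calvin cycle and plastid-encoded genes lie on the shoots side, while iron uptake genes and peroxidases lie mostly on the roots side.

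Photosystem and light-harvesting genes were higher in shoots. All 7 photosystem and light-harvesting genes on the list were called higher in shoots, with differences from -8.99 to -4.39 and a median of -7.69, against 22.3% of all probe sets called in that direction. PSAE-1, a subunit on the stromal side of photosystem I, read 3.219, 2.793 and 3.582 in roots and 12.174, 12.301 and 12.081 in shoots. The groups lay far apart, with a difference of -8.99 (SE 0.19, adjusted p = 3.3e-10). PSBW, a small subunit of photosystem II, differed by -8.06 (SE 0.13), and PSAN, on the lumenal side of photosystem I, by -7.69 (SE 0.18). Of the 3 genes for the minor antenna protein CP29, LHCB4.1 read 6.033 to 6.221 in roots, and LHCB4.3 read 7.332 to 7.805 in shoots.

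Carbon fixation showed differences of the same size. All 4 genes of the Calvin cycle and photorespiration list were called higher in shoots, with a median difference of -7.80. PRK, the phosphoribulokinase that regenerates the acceptor of carbon dioxide, read 2.84, 2.594 and 2.494 in roots and 11.245, 10.984 and 11.211 in shoots. Every shoots value exceeded every roots value by more than 8 log2 units, and the difference was -8.50 (SE 0.14, adjusted p = 1.5e-10). SBPASE, the sedoheptulose bisphosphatase of the same cycle, differed by -8.04 (SE 0.13). RCA, which activates Rubisco, differed by -7.55 (SE 0.12), and HPR, the hydroxypyruvate reductase of photorespiration, by -7.39 (SE 0.16).

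Chlorophyll and tetrapyrrole synthesis was mostly on the shoots side. Of 10 genes, 9 were called higher in shoots and 1, HEMA2, was called higher in roots. PORB, a light-dependent protochlorophyllide reductase late in the path, read 3.905, 3.853 and 4.204 in roots and 11.377, 11.171 and 11.222 in shoots, a difference of -7.27 (SE 0.14, adjusted p = 2.3e-10). CHLI2, a subunit of magnesium chelatase, differed by -5.44 (SE 0.18), and CHLM, the methyltransferase that acts after it, by -3.75 (SE 0.16). Of the early steps, shared with heme synthesis, GSA1 and HEMB1 differed less: they gave -1.82 (SE 0.16) and -1.95 (SE 0.12). HEMA2, a glutamyl-tRNA reductase for the first step, read 6.156, 6.008 and 6.228 in roots and 5.069, 5.053 and 4.956 in shoots, a difference of 1.104 (SE 0.12, adjusted p = 3.45e-05). Its roots values all lay above its shoots values.

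Other shoots genes among the 15 named genes with the largest differences in that direction were COR15A, PIFI and AT1G52220. COR15A, a cold-regulated protein that protects chloroplast membranes, had the largest difference of a named gene, -9.19 (SE 0.14): 2.525, 2.598 and 2.646 in roots against 11.874, 11.906 and 11.567 in shoots. PIFI, named for the rise of chlorophyll fluorescence after illumination, differed by -8.51 (SE 0.16). AT1G52220, which RefSeq lists with the synonym CURVATURE THYLAKOID 1C, differed by -7.78 (SE 0.14). Of the remaining genes on that ranking, 6 carry locus codes alone in the annotation used here, from AT1G09310 at -8.88 (SE 0.12) to AT5G03350 at -7.68 (SE 0.18).

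Genes of the plastid genome went the same way, with smaller differences. Of 69 probe sets for plastid-encoded genes, 63 were called higher in shoots, 0 higher in roots and 6 were not called, with a median difference of -2.51; this list was added after values had been seen. All 35 genes for photosystem, cytochrome, ATP synthase and Rubisco subunits were called higher in shoots, with a median of -2.88. Among 20 genes of plastid transcription and translation, 16 were called higher in shoots and the median was -1.45. psbA, the D1 protein of photosystem II, read 3.919, 3.23 and 3.519 in roots and 8.578, 8.931 and 8.877 in shoots, a difference of -5.24 (SE 0.19, adjusted p = 7.14e-09). Its groups did not overlap.

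The plastid gene rbcL, the large subunit of Rubisco, read 7.185, 7.767 and 7.014 in roots and 9.151, 9.693 and 10.39 in shoots, a difference of -2.42 (SE 0.30). Its groups did not overlap, though the difference was smaller than that of the nuclear Calvin cycle genes. The 6 plastid genes not called were rps15, rpl20, rpl14 and rpl16 for ribosomal proteins, ndhF for the NADH dehydrogenase-like complex and accD for fatty acid synthesis. accD read 7.311 to 7.651 in roots and 6.97 to 8.139 in shoots, so its groups overlapped. The mean of the 69 was 8.324, 8.653 and 8.879 on the 3 shoots arrays and 6.163, 6.25 and 5.962 on the roots arrays. On the shoots arrays the ribosomal RNA control was also highest on replicate 3, and its part in these values was not tested.

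Root genes of iron acquisition stood out on the other side. Of 7 genes in the iron uptake list, 6 were called higher in roots, with a median difference of 3.78, against 29.4% of all probe sets called in that direction. The list was drawn up with earlier results of these data known, so its count is a description and no independent support. AT3G13610, which RefSeq lists as F6'H1, the feruloyl-CoA 6'-hydroxylase that makes the coumarin scopoletin, read 11.488, 11.121 and 11.294 in roots and 3.786, 3.285 and 3.554 in shoots. That is a difference of 7.76 (SE 0.16, adjusted p = 3.3e-10), the sixth largest of all named genes toward roots. AT3G12900, another gene of the list, read 9.772, 8.879 and 9.457 in roots and 3.225, 3.331 and 3.257 in shoots, a difference of 6.10 (SE 0.21, adjusted p = 4.9e-09). Roots and shoots did not overlap for either gene.

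AT3G61930, an iron-list gene with no symbol in the annotation used here, read 8.288, 7.463 and 8.262 in roots and 2.762, 3.223 and 3.532 in shoots, a difference of 4.83 (SE 0.26, adjusted p = 1.07e-07). The kelch repeat iron marker AT3G07720 read 10.986, 9.755 and 10.99 in roots and 6.768, 6.698 and 6.918 in shoots, a difference of 3.78 (SE 0.29, adjusted p = 1.98e-06). Its roots arrays all lay above its shoots arrays. AT3G58060 differed by 3.19 (SE 0.28) and AT1G28680 by 2.003 (SE 0.15). BGLU42, a beta-glucosidase that acts on coumarin glycosides, was the exception: 5.898, 5.89 and 6.453 in roots and 6.465, 6.152 and 6.287 in shoots, a difference of -0.22 (95% interval -0.62 to 0.18, adjusted p = 0.333). Its groups overlapped, and without roots replicate 3 it was called higher in shoots.

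Roots replicate 2 was the lowest of the 3 roots arrays in many iron genes. The mean of the 7 uptake genes was 8.686, 8.036 and 8.652 on the roots arrays and 4.574, 4.434 and 4.601 on the shoots arrays. The mean of the 15 probe sets for iron regulators was 6.229, 5.847 and 6.266 in roots and 4.787, 4.749 and 4.774 in shoots. With replicate 2 left out, 6 of the 7 uptake genes were still called higher in roots and the median difference was 4.19.

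**Figure D2:**
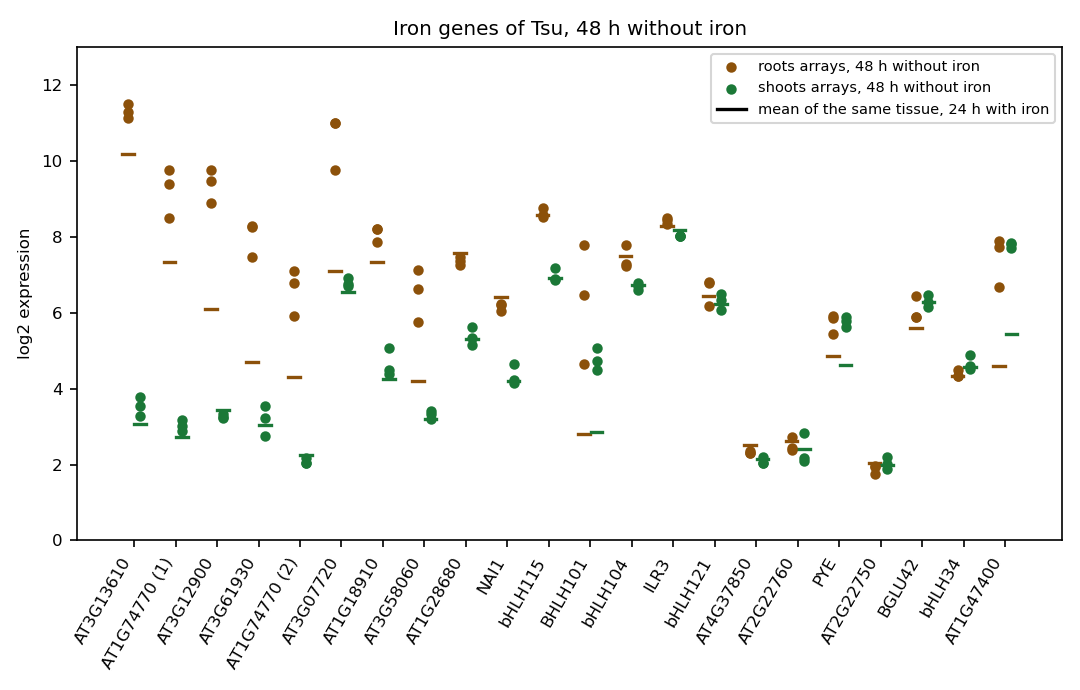
Log2 expression on the vertical axis for each probe set of the iron uptake and iron regulator lists, sorted by difference; brown points are the 3 roots arrays and green points the 3 shoots arrays of Tsu after 48 h without iron, and short lines of the same colour are the means of 3 arrays on medium with iron. Numbers in brackets count probe sets of 1 gene. At the left, roots points lie above shoots points by up to 7.76, while AT1G47400 at the right is high in both tissues.

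The regulators of iron uptake were divided between genes that differed by tissue and genes at similar levels in both. Of 15 probe sets for 14 genes, 7 were called higher in roots, 0 higher in shoots and 8 were not called, with a median difference of 0.41. AT1G74770, measured by 2 probe sets, gave differences of 6.19 (SE 0.28) and 4.51 (SE 0.26), with roots at 9.755, 8.492 and 9.395 and shoots at 3.021, 2.892 and 3.169 on the first of them. AT1G18910 read 8.215, 7.876 and 8.204 in roots and 5.058, 4.503 and 4.386 in shoots, a difference of 3.45 (SE 0.19, adjusted p = 1.54e-07). Both probe sets of AT1G74770 and that of AT1G18910 separated roots from shoots on all 6 arrays.

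Among bHLH factors, the differences were smaller. bHLH115, an activator of the iron deficiency response, read 8.578, 8.754 and 8.527 in roots and 6.861, 7.167 and 6.895 in shoots, a difference of 1.65 (SE 0.14, adjusted p = 3.69e-06). Its partner bHLH104 differed by 0.73 (SE 0.17, adjusted p = 0.00395), and ILR3, also of that subgroup, by 0.41 (SE 0.12, adjusted p = 0.0159). The call of ILR3 was lost without roots replicate 1 or 2. NAI1, a bHLH factor best known for endoplasmic reticulum bodies, differed by 1.82 (SE 0.16).

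BHLH101, a subgroup Ib factor that acts with FIT, spread widely in roots, at 6.478, 4.655 and 7.773, against 4.738, 4.48 and 5.08 in shoots. The groups overlapped, and the difference of 1.54 (95% interval 0.17 to 2.90, adjusted p = 0.0591) was not called. It was called with the replicate number as a block (limma adjusted p = 0.0106), with all 36 arrays in 1 fit (0.00616), with the 12 arrays at 48 h (0.0238), with a trended spread prior (0.0393), and without roots replicate 2 (difference 2.36, adjusted p = 0.000255). PYE, which represses iron storage and transport genes, read 5.917, 5.437 and 5.858 in roots and 5.631, 5.784 and 5.887 in shoots, a difference of -0.03 (95% interval -0.39 to 0.33, adjusted p = 0.893). PYE values of the tissues overlapped.

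The IRON MAN peptide gene AT1G47400 was not called between the tissues. It read 7.721, 6.673 and 7.893 in roots and 7.805, 7.71 and 7.835 in shoots, a difference of -0.35 (95% interval -0.97 to 0.26, adjusted p = 0.316). On medium with iron, sampled at 24 h, its means were 4.58 in roots and 5.44 in shoots. Levels without iron thus lay above those with iron in roots and shoots alike, and its tissue difference was not called between the media (0.50, adjusted p = 0.781). bHLH121 and bHLH34 were not called between the tissues either, at 0.30 (95% interval -0.14 to 0.73) and -0.28 (95% interval -0.60 to 0.03). The other 3 uncalled genes, AT2G22750, AT2G22760 and AT4G37850, read below 3 on every array.

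Copper and superoxide proteins and other ion transporters gave mixed results. TAPX, the ascorbate peroxidase bound to thylakoids, differed by -5.26 (SE 0.13), with 3.374 to 3.522 in roots and 8.593 to 8.858 in shoots. SAPX, the soluble form in the plastid stroma, read 7.98, 8.228 and 7.63 in roots and 7.932, 7.881 and 7.824 in shoots, a difference of 0.07 (95% interval -0.30 to 0.43, adjusted p = 0.759). TAPX was therefore a shoots reading and SAPX overlapped between tissues. CCS, the copper chaperone for superoxide dismutase, overlapped too, with a difference of -0.14 (95% interval -0.51 to 0.22), and ARPN, a plantacyanin, was higher in roots by 2.09 (SE 0.14).

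Of 12 nutrient transporters, 5 were called higher in roots, 3 higher in shoots and 4 were not called. ZIP9, of the family of zinc and iron transporters, read 5.466, 5.149 and 5.612 in roots and 3.176, 3.511 and 3.658 in shoots, a difference of 1.96 (SE 0.17, adjusted p = 5.15e-06). ZIP6 of the same family differed by 1.41 (SE 0.20). Toward shoots, AT3G21670 (NPF6.4) differed by -4.67 (SE 0.14) and AT2G26690 (NPF6.2) by -3.96 (SE 0.20), both of the nitrate and peptide transporter family. APS4, an ATP sulfurylase of sulfate assimilation, was higher in roots by 2.84 (SE 0.23) and APS3 higher in shoots, at -0.90 (SE 0.17). Transporters and assimilation genes thus lay on either side. The 2 genes on the list of iron transport and storage, AT1G07030 and AT2G30160, were not called, at -0.18 and 0.22.

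Class III peroxidases, secreted heme enzymes that cross-link cell walls, were mostly root genes. Of the 7 on the list, 6 were called higher in roots, with a median difference of 2.57. The list was matched by name and need not hold every member of the family. Prx37 read 10.387, 10.257 and 9.865 in roots and 3.109, 3.437 and 2.883 in shoots, a difference of 7.03 (SE 0.19, adjusted p = 1.07e-09). AT5G66390, a peroxidase by its RefSeq synonym, differed by 6.13 (SE 0.16), and AT2G41480, another, by 4.44 (SE 0.22). PRXR1 read 12.734 to 12.877 in roots and 12.324 to 12.484 in shoots, near the highest value on the arrays. Its difference of 0.36 (SE 0.12, adjusted p = 0.0311) was lost under several alternative settings, the replicate number as a block among them (adjusted p = 0.0586). AT3G50990 read below 3 on all 6 arrays and was not called.

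Expansins, which loosen cell walls, and hydroxyproline-rich wall proteins were found on both sides. Of 20 genes, 12 were called higher in roots, 3 higher in shoots and 5 were not called. EXPA8 read 3.787, 4.105 and 4.33 in roots and 9.258, 9.079 and 9.924 in shoots, a difference of -5.35 (SE 0.23, adjusted p = 2.27e-08). HRGP1 had the opposite pattern, with 7.487, 7.806 and 7.975 in roots and 3.854, 4.185 and 3.838 in shoots, a difference of 3.80 (SE 0.17, adjusted p = 2.69e-08). Genes of this list thus lay on opposite sides. EXPA9 and EXPB2 were higher in roots by 3.55 (SE 0.15) and 3.38 (SE 0.26), and EXPA16 was higher in shoots, at -2.12 (SE 0.14). The root hair genes EXPA7 and EXPA18 differed by 3.08 (SE 0.20) and 1.88 (SE 0.30).

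**Figure D3:**
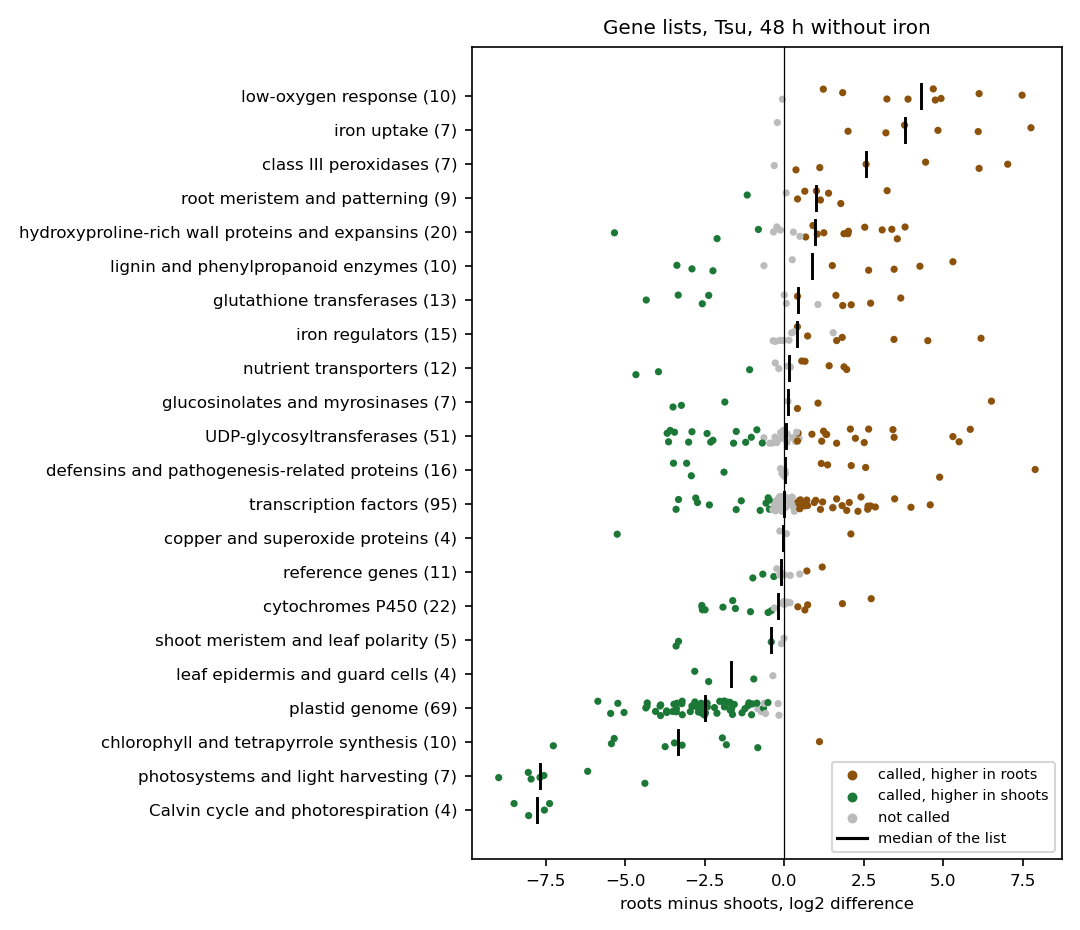
Each point is 1 probe set, placed by its roots minus shoots difference on the log2 scale (horizontal axis) in the row of its gene list, with the number of probe sets in brackets; lists of fewer than 4 are left out, colours give the call at an adjusted p below 0.05 and the black bar is the median of the list. Medians run from -7.80 for the Calvin cycle list to 4.29 for the low-oxygen list, whose roots arrays were uneven.

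Defence proteins and secondary metabolism held large differences of both signs. Of 16 defensins and pathogenesis-related proteins, 6 were called higher in roots and 4 higher in shoots, beside shares of 29.4% and 22.3% over all probe sets. OSM34, an osmotin of the pathogenesis-related kind, read 10.852, 10.74 and 10.477 in roots and 2.721, 2.968 and 2.709 in shoots, a difference of 7.89 (SE 0.15, adjusted p = 2.02e-10). PDF2.5, a plant defensin, differed by 4.88 (SE 0.14). PDF1.2, the defensin induced by jasmonate, had the opposite sign, with 3.21, 3.328 and 3.461 in roots and 6.379, 6.57 and 7.512 in shoots and a difference of -3.49 (SE 0.26). THI2.1, a thionin, was also higher in shoots, at -2.93 (SE 0.30).

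PYK10, the beta-glucosidase stored in endoplasmic reticulum bodies of roots, read 12.472, 12.473 and 12.433 in roots and 5.946, 6.149 and 5.738 in shoots, a difference of 6.51 (SE 0.14, adjusted p = 3.3e-10). Its groups did not overlap. Of the 7 genes on the glucosinolate and myrosinase list, to which it belongs, 3 were called higher in roots and 3 higher in shoots. AOP3 and AOP1, of the locus that sets glucosinolate side chains, were higher in shoots, at -3.24 (SE 0.18) and -3.50 (SE 0.15). BCAT4, an early enzyme of methionine chain elongation, read 10.722 to 11.122 over both tissues and was not called (0.12, 95% interval -0.18 to 0.41).

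Of 10 lignin and phenylpropanoid genes, 5 were called higher in roots and 3 higher in shoots. UGT72E2, a glucosyltransferase of monolignols, read 8.954, 9.006 and 8.831 in roots and 3.585, 3.567 and 3.731 in shoots, a difference of 5.30 (SE 0.12, adjusted p = 5.45e-10). CCOAMT, a caffeoyl-CoA methyltransferase, differed by 4.26 (SE 0.32). DFR, the dihydroflavonol reductase of anthocyanin synthesis, had an uneven shoots group: 6.731, 6.683 and 4.035, against 2.242 to 2.568 in roots. All 3 shoots values still exceeded the roots values, and the difference was -3.38 (SE 0.59, adjusted p = 0.000798).

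Of 3 families added to the lists after values had been seen, none lay on 1 side. Their counts stand beside shares of 29.4% toward roots and 22.3% toward shoots over all probe sets. Among 51 UDP-glycosyltransferases, 17 were called higher in roots and 15 higher in shoots, from UGT71C1 at 5.85 (SE 0.27) and UGT76B1 at 5.50 (SE 0.26) to UGT84A3 at -3.69 (SE 0.15). Among 13 glutathione transferases, 6 were called higher in roots and 4 higher in shoots, from GSTU26 at 3.66 (SE 0.24) to GSTU18 at -4.35 (SE 0.13). Among 22 cytochromes P450, 5 were called higher in roots and 10 higher in shoots, from CYP71B37 at 2.73 (SE 0.19) to CYP71B35 at -2.60 (SE 0.22).

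Developmental regulators marked both organs. Of 9 genes for the root meristem and patterning, 7 were called higher in roots, 1 higher in shoots and 1, CLE40, was not called. UPB1, a bHLH factor that limits the size of the root meristem, read 5.802, 5.927 and 5.566 in roots and 2.374, 2.754 and 2.468 in shoots, a difference of 3.23 (SE 0.15, adjusted p = 4.97e-08). JKD, a zinc finger factor of ground tissue, differed by 1.77 (SE 0.17). CR4, a receptor kinase of the epidermis in many organs, went the other way, at -1.17 (SE 0.17). GSO1, a receptor needed for the Casparian strip of the root endodermis, was higher in roots by 2.78 (SE 0.15).

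On the shoot side, 3 of the 5 genes for the shoot meristem and leaf polarity were called higher in shoots, and CLV3 and PHV were not called. YAB5 and YAB3, which mark the lower face of leaves, differed by -3.41 (SE 0.23) and -3.33 (SE 0.15). YAB3 read 2.416, 2.487 and 2.211 in roots and 5.516, 5.624 and 5.965 in shoots, with no overlap. JAG, a zinc finger factor of lateral organs, read 1.95 to 2.184 in roots and 2.44 to 2.569 in shoots, and its difference of -0.41 (SE 0.13) was lost under 3 other settings. PHV, a leaf polarity factor, differed by -0.01 (95% interval -0.35 to 0.33). Of the 4 genes for leaf epidermis and guard cells, 3 were called higher in shoots. FMA and SPCH of the stomatal lineage differed by -2.38 (SE 0.30) and -0.96 (SE 0.25), and MUTE of the same lineage was not called (-0.36, 95% interval -0.68 to -0.04). WSD1, a wax ester synthase of the leaf and stem surface, differed by -2.82 (SE 0.30), with shoots values of 6.176, 5.308 and 4.701. SWEET11, a sucrose exporter of phloem parenchyma, read 4.428, 4.815 and 4.876 in roots and 9.596, 9.39 and 9.348 in shoots, a difference of -4.74 (SE 0.15). CLV3, the stem cell peptide of the shoot meristem, read between 2.04 and 2.494 on all 6 arrays.

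Among 95 probe sets for transcription factors of several families, 28 were called higher in roots, 12 higher in shoots and 55 were not called, with a median difference of -0.02. Over all probe sets the shares were 29.4% toward roots and 22.3% toward shoots, so the roots count was near its share and the shoots count below it. Of 6 WRKY factors, 4 were called higher in roots, with a median of 2.18. WRKY22 read 6.983, 6.419 and 6.915 in roots and 3.195, 3.166 and 3.546 in shoots, a difference of 3.47 (SE 0.18, adjusted p = 9.88e-08). Of 42 probe sets for AGAMOUS-like MADS factors, 7 were called higher in roots and 3 higher in shoots, and AGL79 led toward roots with 4.59 (SE 0.15) on one probe set and 2.71 (SE 0.19) on another. AGL24, a regulator of flowering, read 2.943, 3.149 and 3.082 in roots and 5.881, 5.639 and 6.017 in shoots, a difference of -2.79 (SE 0.14). Of 14 bZIP factors, 8 were called higher in roots and 2 higher in shoots.

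Reference genes gave no separate check of the scale between tissues. Over all probe sets the median difference was 0.005 and 51.7% were called, and this list was called at a similar rate. Of 11 actin, tubulin, GAPC2 and PEX4 probe sets, 2 were called higher in roots, 3 higher in shoots and 6 were not called, with a median difference of -0.11 and a range from -0.99 for TUB5 to 1.19 for ACT11. PEX4, the ubiquitin-conjugating enzyme gene often used for normalization, read 8.041, 7.937 and 8.198 in roots and 8.072, 8.039 and 8.057 in shoots, a difference of 0.00 (95% interval -0.28 to 0.28). Among clock genes, COR27 was higher in shoots, at -1.94 (SE 0.18), and GI differed by -0.40 (SE 0.14, adjusted p = 0.0322), while TIC was not called. HYH, the light-signalling bZIP factor, was not called either (0.17, 95% interval -0.17 to 0.50).

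The 15 named genes with the largest differences toward roots held few symbols. They ran from AT3G01190 at 8.73 (SE 0.22) to AT5G44380 at 7.12 (SE 0.22) and included OSM34 and AT3G13610. AT3G01190 read 11.384, 11.89 and 11.098 in roots and 2.526, 2.583 and 3.073 in shoots. AT4G33720 followed with a difference of 8.63 (SE 0.24), and AT1G26250 with 8.27 (SE 0.20). Each of the 15 had all 3 roots values above all 3 shoots values, as the ranking required.

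Genes of the low-oxygen response were split among the roots arrays. Of 10 genes, 9 were called higher in roots, with a median difference of 4.29, and PDC2, a pyruvate decarboxylase of fermentation, was not called. The median difference of the list was 0.61 in Tsu with iron and 1.78 in Kas after 48 h without iron. AT3G29970 read 10.867, 10.377 and 4.26 in roots and 3.973, 3.798 and 3.676 in shoots. AT5G10040 read 10.087, 9.016 and 2.684 in roots and 2.525, 2.596 and 2.418 in shoots. In both genes roots replicates 1 and 2 were far above the shoots arrays, and replicate 3 was within 1 unit of them. The differences were 4.68 (95% interval 1.58 to 7.79, adjusted p = 0.0169) and 4.75 (95% interval 1.37 to 8.12, adjusted p = 0.0234).

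The mean of the 10 genes was 9.873, 9.413 and 6.462 on the roots arrays and 4.774, 4.854 and 4.694 on the shoots arrays. On other roots arrays it was 5.937, 5.908 and 6.016 in Tsu with iron and 6.205, 6.328 and 6.33 in Kas after 48 h without iron. Tsu roots after 24 h without iron read 8.531, 7.879 and 8.324. Replicate 3 thus lay near the roots of the first 2 groups, and replicates 1 and 2 lay above all of these arrays. The Tsu roots arrays after 24 h without iron stood between the ecotypes, at 0.476, 0.656 and 0.427 on the index described below. AT1G19530 was the member with even roots arrays, at 11.306, 10.735 and 10.676 against 3.184 to 3.584 in shoots, a difference of 7.48 (SE 0.19, adjusted p = 8.83e-10). AT4G17260 read 7.921, 8.266 and 7.121 in roots and 6.605, 6.461 and 6.567 in shoots. PDC2 read 9.8, 9.158 and 7.788 in roots and 9.245, 8.939 and 8.746 in shoots, so that replicates 1 and 3 of roots lay on opposite sides of the shoots arrays. Without roots replicate 1 or replicate 2, 6 of the 10 genes were called, and without replicate 3, 9 were called with a median of 5.39. Without shoots replicate 1, 2 or 3, the count was 7, 6 and 6. The ribosomal RNA control was also lowest on roots replicate 3 among the roots arrays, and its part in these values was not tested.

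**Figure D4:**
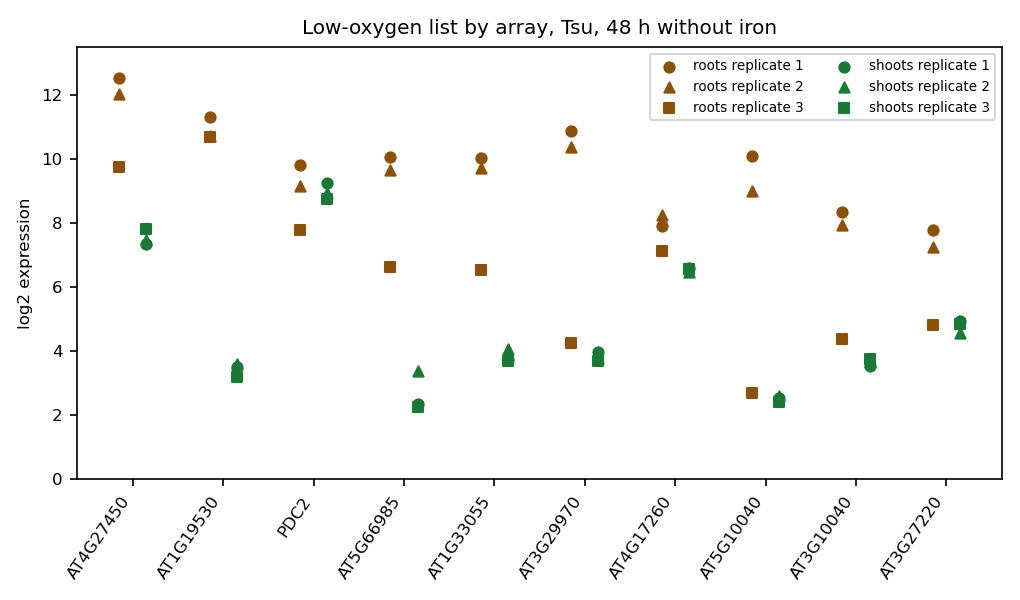
Log2 expression (vertical axis) of the 10 genes of the low-oxygen list on each array of Tsu after 48 h without iron, ordered by the mean in roots; brown symbols are roots and green symbols shoots, and the shape gives the replicate. Roots replicate 3 (brown squares) lies below replicates 1 and 2 in every gene, and close to the shoots arrays in AT3G29970, AT5G10040, AT3G10040 and AT3G27220.

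A stricter description of tissue specificity asked for a reading above the array's own upper quartile on all 3 arrays of one tissue and below the array's median on all 3 of the other. By that rule 429 probe sets (1.89%) were limited to roots and 664 (2.92%) to shoots. The photosystem list gave 6 of its 7 genes to shoots, LHCB4.1 being too bright in roots, and all 4 Calvin cycle genes. The iron uptake list gave AT3G13610, AT3G12900 and AT3G61930 to roots, and the regulator list gave AT1G74770 and AT1G18910. On the other wall and defence lists, AT5G66390, AT2G41480, Prx37, EXPA9, HRGP1, OSM34 and PDF2.5 were limited to roots and EXPA8 to shoots.

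Applied to Tsu roots and shoots with iron, the same rule found 446 and 697 probe sets. Of these, 344 and 574 were among the 429 and 664 without iron, which is 80.2% and 86.4% of those lists and 77.1% and 82.4% of the lists with iron. In Kas after 48 h without iron it found 436 and 696, with 271 and 508 in common with Tsu. With the lower quartile in place of the median, 66 probe sets in roots and 97 in shoots remained.

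Whether the tissue difference depended on iron was tested as an interaction over 12 Tsu arrays: the difference after 48 h without iron minus the difference after 24 h with iron. Medium with iron was sampled at 24 h alone, so iron and time cannot be told apart. The 3 Tsu roots arrays with iron also stood between the ecotypes. On an index over 86 probe sets that separate Kas from Tsu roots at 48 h, where Tsu at 48 h averages 0 and Kas 1, they read 0.471, 0.231 and 0.538. Kas roots arrays with iron read 1, 0.505 and 0.581 on it, so a midway place was not particular to Tsu roots with iron. The Tsu shoots arrays with iron read -0.004, -0.024 and -0.032 on the like index. The interaction called 66 probe sets (0.29%), 30 (0.132%) shifted toward roots without iron and 36 (0.158%) toward shoots. With probe sets called between the ecotypes left out, there were 5 calls, 2 toward roots and 3 toward shoots, in an alternative chosen after seeing the data. None of the 12 named genes with the largest shifts was among these 5.

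The number of calls for this interaction moved with single arrays. Without replicate 1, 2 or 3 of the roots without iron it was 20, 190 and 192, and without those of the shoots without iron 32, 24 and 184. Without replicate 1, 2 or 3 of the roots with iron it was 98, 169 and 82, and without those of the shoots with iron 31, 34 and 21. The genes below are therefore given with their own values.

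Iron uptake genes led the shifts toward roots. Of the 7 on the list, 3 were called, all toward roots. As the list was drawn up with earlier results of these data known, that count is a description alone. AT3G12900 differed between tissues by 2.66 with iron and 6.10 without it, an interaction of 3.44 (SE 0.43, adjusted p = 0.00489). Its roots mean was 6.09 with iron and 9.37 without, and its shoots mean 3.43 and 3.27. AT3G07720 differed by 0.53 with iron and 3.78 without (interaction 3.25, SE 0.39, adjusted p = 0.00415), and AT3G61930 by 1.65 and 4.83 (interaction 3.19, SE 0.46, adjusted p = 0.0123). In these 3 genes the roots mean was higher without iron, and the shoots mean differed far less between the media.

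One probe set of AT1G74770 was called as well, at 2.46 (SE 0.36, adjusted p = 0.0126), while its other probe set was not, at 1.58 (adjusted p = 0.129). AT3G13610 was not called, at 0.65 (adjusted p = 0.507): its roots mean was 10.19 with iron and 11.30 without. Its tissue difference was thus large on both media. AT4G34950 changed from -4.31 with iron to -1.01 without, an interaction of 3.31 (SE 0.41, adjusted p = 0.00489). AT5G38820 and AT3G48450 had interactions of 2.80 (SE 0.50) and 2.64 (SE 0.49), and their calls were lost when single arrays were left out. The call of AT5G38820 was also lost with the replicate number as a block (adjusted p = 0.0543).

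Among shifts toward shoots, CCS was the one list member besides CYP71B23. Its shoots mean was 7.35 with iron, and its 3 shoots arrays without iron read 8.688, 8.86 and 9.216, while its roots mean was 8.73 with iron and its roots arrays without iron read 8.751, 8.65 and 8.935. The interaction was -1.52 (SE 0.21, adjusted p = 0.00968). CYP71B23, a cytochrome P450, had shoots means of 4.33 with iron and 5.79 without and an interaction of -1.81 (SE 0.28, adjusted p = 0.0147). In both, the shoots level was higher without iron. AT1G16260 differed by -1.85 with iron and -3.56 without, an interaction of -1.71 (SE 0.25, adjusted p = 0.0126). None of the 7 photosystem genes, 10 chlorophyll genes or 69 plastid-encoded genes was called for this interaction. Only 0.29% of all probe sets were called, so the lack of calls is near that share and is no result about these genes.

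Whether the tissue difference of Tsu held in Kas at 48 h without iron was tested over 12 arrays, as the Kas difference minus the Tsu difference. This called 4376 probe sets (19.2%), 2191 (9.63%) shifted toward roots in Kas and 2185 (9.61%) toward shoots. It uses the same Tsu arrays as the results above. All 5 iron uptake genes called were shifted toward shoots in Kas, that is, their excess in roots over shoots was smaller there. AT3G13610 differed between tissues by 7.76 in Tsu and 5.11 in Kas (interaction -2.65, SE 0.23, adjusted p = 1.84e-06). Its roots means were 11.30 in Tsu and 10.64 in Kas and its shoots means 3.54 and 5.54, so the shift lay more in higher Kas shoots readings. AT3G12900 differed by 6.10 in Tsu and 4.25 in Kas (interaction -1.84, SE 0.28, adjusted p = 0.000264). Here the roots means were 9.37 and 7.08 and the shoots means 3.27 and 2.83, so the shift lay in lower Kas roots readings.

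Of the 69 plastid-encoded genes, 32 were called for the ecotype interaction, all shifted toward shoots in Kas, where the median difference was -3.23 against -2.51 in Tsu. atpF, of the plastid ATP synthase, differed by -3.37 in Tsu and -5.53 in Kas (interaction -2.16, SE 0.44). Nuclear photosystem genes did not share 1 direction: of 7, 3 were shifted toward roots and 1 toward shoots in Kas. The tissue sign itself was the same in both ecotypes for all 63 plastid genes and all 7 photosystem genes called in Tsu.

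The largest ecotype shifts included reversals of the tissue sign. AT3G22240 read 9.373, 9.709 and 9.784 in Tsu roots and 12.154, 12.205 and 12.101 in Tsu shoots, a difference of -2.53, while in Kas the difference was 3.72 (interaction 6.25, SE 0.20, adjusted p = 2.52e-10). The shoots mean was 5.62 in Kas. CCOAMT differed by 4.26 in Tsu and -1.42 in Kas (interaction -5.68, SE 0.46), and CHI, a chitinase, by 3.73 and -1 (interaction -4.73, SE 0.25). OSM34 kept its sign, at 7.89 and 2.99. AOP3 differed by -3.24 in Tsu and 0.40 in Kas (interaction 3.64, SE 0.27, adjusted p = 4.81e-07), and WRKY53 by 2.31 and -0.20 (interaction -2.52, SE 0.28).

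**Figure D5:**
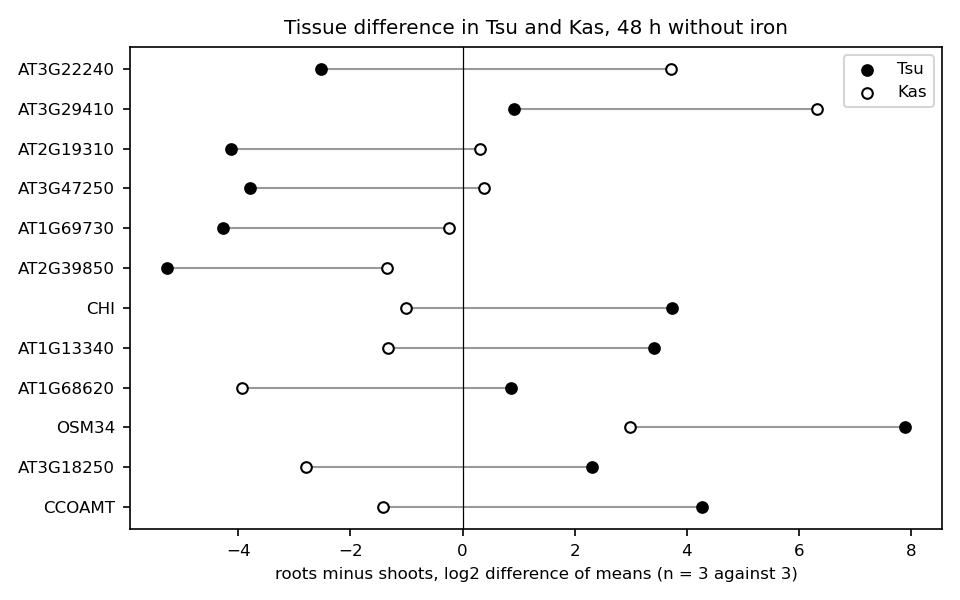
Roots minus shoots difference of means on the log2 scale (horizontal axis) after 48 h without iron for the 12 named genes with the largest tissue by ecotype interactions; filled circles are Tsu, open circles Kas, and grey lines join the pair. AT3G22240 lies at -2.53 in Tsu and 3.72 in Kas, and CCOAMT at 4.26 and -1.42.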

How the data were processed

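The deposited values are log2 expression levels of probe sets, as judged from their range. How the authors corrected background, summarised probes and normalized is not given in the sources used here. Of 22810 probe sets, 64 controls were left out and 22746 tested, with no filter. The array's annotation, updated through Entrez identifiers to RefSeq (TAIR10.1, for names alone), named 1 gene for 13513.

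Differences were tested with limma 3.58.1 in R 4.3.3 (lmFit, eBayes), two-sided, with 1 mean per group over the 6 arrays, or over 12 arrays for each interaction. Tested on simulated data of this size, the fit called 65% of 100 probe sets changed by 1 log2 unit and 93% of 100 changed by 2.

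Named genes were the 15 with the largest non-overlapping differences in each direction, the 6 largest in each direction per interaction, and members of the gene lists. Members and lists were chosen with earlier results of these data known. Lists for 4 families (plastid genome, UDP-glycosyltransferases, glutathione transferases, cytochromes P450) were added, and some wrongly matched symbols removed, after values were seen. Replicate numbers were not used to pair the tissues in the main fit. Same-numbered deviations correlated at 0.087, -0.006 and 0.04, and differently numbered ones at -0.063 to 0.014. These small values do not settle whether the tissues were paired, so fits with the replicate number as a block are given beside the main ones. No promoter sequences were used here.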

Additional observations from a re-analysis of the deposited data

Results flagged for a closer look

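Groups of 3 arrays are too small for a test of single outlying samples, so the results below are those whose tissue difference differed between media or between ecotypes by an interaction test, 12 for each.

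Between media in Tsu (without iron at 48 h minus with iron at 24 h), the tissue difference shifted toward roots by 3.44 in AT3G12900, 3.31 in AT4G34950, 3.25 in AT3G07720, 3.19 in AT3G61930, 2.80 in AT5G38820 and 2.64 in AT3G48450. It shifted toward shoots in AT4G08380 (-2.10), AT3G44070 (-2.0), CYP71B23 (-1.81), AT1G10340 (-1.74), AT2G38790 (-1.72) and AT1G16260 (-1.71). The Tsu roots arrays with iron stood between the ecotypes on the index given above, as did replicates 2 and 3 of Kas roots with iron. Of these 12 genes AT5G38820, AT3G44070, AT2G38790 and AT1G16260 were not called for the ecotype interaction while the other 8 were. That interaction misses an ecotype difference shared by both tissues, so the lack of a call does not clear a gene of one. AT3G44070 had roots means of 3.35 in Tsu without iron, 5.30 in Tsu with iron and 6.25 in Kas, and AT1G16260 had 2.73, 4.04 and 4.21. In AT5G38820 and AT2G38790 the mean with iron did not lie between the others.

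Between ecotypes (Kas minus Tsu, both at 48 h without iron), the tissue difference shifted toward roots in Kas by 6.25 in AT3G22240, 5.41 in AT3G29410, 4.44 in AT2G19310, 4.17 in AT3G47250, 4.03 in AT1G69730 and 3.93 in AT2G39850. AT3G47250 and AT1G69730 were dim in both Kas tissues, with roots means of 2.36 and 2.72 and shoots means of 1.98 and 2.97. Their Tsu shoots means were 7.61 and 7.12, so the shift lay in lower shoots readings in Kas and not in higher roots readings. It shifted toward shoots in CCOAMT (-5.68), AT3G18250 (-5.10), OSM34 (-4.90), AT1G68620 (-4.80), AT1G13340 (-4.74) and CHI (-4.73). AT3G29410 read 2.511, 5.562 and 2.215 on the Tsu roots arrays, so replicate 2 stood apart from the others, and its mean in Kas roots was 9.06.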

How the results depend on the processing

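With 3 arrays a group, no detection calls and unknown normalization, dim probe sets and small differences are the least certain. The count of calls between roots and shoots ran from 9642 to 12807 under other fits, filters and scalings, except that a test against a minimum difference of 1 called 4589, with 2227 higher in roots and 2362 higher in shoots. Leaving out 1 array gave 10481 to 11540. The split by direction moved with scaling: median centring gave 6068 higher in roots and 5709 higher in shoots, against 6690 and 5074 in the main fit. Quantile normalization gave 6559 and 5122, closer to the main fit. For single genes, the settings were run on 229 probe sets and not on all 403 of the lists. WRKY22, AGL79, UGT71C1, psbA and rbcL were among those not run. Of the 229, none of the 171 called between roots and shoots changed sign under a setting run. Of the 58 not called, 24 did, PYE and AT1G47400 among them at 0.12 and 0.024 without roots replicate 2. Calls of 18 were lost under more than 1 setting (ILR3, PRXR1, NRT2.5, GI, EXLA1, EXPA20, UGT74B1, TUB6, BBM, JAG, CYP71B25, CYP71B36, CYP51G2, GSTU21, AT1G33440, AT5G10040, AT3G29970 and AT3G27220), and the cause was not tested. Among the 229, the replicate block ended the calls of PRXR1, UGT74B1 and TUB6 and added those of BHLH101, UGT84A1 and GSTU25.

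For the tissue by iron interaction, all 36 arrays in 1 fit gave 548 calls (239 toward roots and 309 toward shoots without iron), and without probe sets called between the ecotypes there were 5 (2 and 3), where fewer were tested. With the replicate number as a block there were 42, of which 21 were toward shoots, against 11606 for roots against shoots and 4323 for tissue by ecotype, and the block moved no other count by over 1.5 times. Leaving out 1 array gave 20 to 192 calls, 12 to 147 toward roots and 7 to 129 toward shoots. Median centring gave 84 and quantile normalization 70. Of the 12 genes named for it, AT5G38820, AT3G48450, AT4G08380, AT3G44070, AT1G10340, AT2G38790 and CYP71B23 lost their call without at least 1 array, and AT3G12900, AT4G34950, AT3G07720, AT3G61930 and AT1G16260 did not. None of the 12 was among the 5 calls left without probe sets called between the ecotypes. AT2G38790 was tested there and lost its call (limma adjusted p = 0.0868), and the rest were themselves left out. The block also ended 4 of these calls, those of AT5G38820 (adjusted p = 0.0543), AT4G08380 (0.0713), AT3G44070 (0.0657) and AT2G38790 (0.0543).

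Tissue by ecotype kept 3406 to 4830 calls under every setting run. Of the probe sets limited to 1 tissue, 66 in roots and 97 in shoots met the lower quartile, and leaving out 1 array gave 435 to 497 and 676 to 698. The planned promoter description was not run.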
